A study of Mus musculus with 7 samples.

Results

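The genes described here encode plasma proteins of complement, clotting and fibrinolysis, together with their inhibitors, nearly all of them made by hepatocytes. They were chosen by name: a list of 41 genes was matched to probe sets whose platform annotation gave 1 of these symbols and no other. No measured value entered the matching, but the list was written with earlier results of these data known. Of the 41 genes, 38 had such a probe set, among 18193 genes that did, with 50 probe sets in all out of 45037 on the array. C4b had only a probe set annotated to C4a as well. C3, a central protein of complement, and Cpb2 had no probe set annotated to their symbol alone. For these 3 genes no value is given.

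Each liver came from a male pup of the C57BL/6J strain, killed on day of life 1, and was read on 1 Affymetrix expression array. The 3 wild type mice were littermates of glycerol kinase knockout mice, and the 4 other mice were such knockouts. Glycerol kinase phosphorylates glycerol, and knockout pups of this age do not yet show signs of its deficiency, so the comparison asks which transcripts differ before disease is overt. The labels name no floxed allele, Cre or drug, and they give each liver as a separate RNA extract.

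Complement and clotting are both cascades of serine proteases that circulate as inactive precursors and activate each other in order. Complement starts from antibody, from sugars bound by lectins or from its own slow turnover, and ends in a pore made by the terminal components. Clotting ends in thrombin, which turns fibrinogen into fibrin, and plasmin later dissolves the clot. The liver is the main source of both systems and of the serpins that restrain them, and in rodents many of these genes reach their adult output around and after birth.

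None of the 38 genes passed the test for a difference between knockout and wild type liver. The test was limma's moderated test across all 22518 probe sets kept by an expression filter, and a gene, represented by its brightest probe set, counted as called where the p adjusted after Benjamini-Hochberg was under 0.05. The count of 0 of 38 stands beside 4.24% of all tested probe sets called, 2.35% higher and 1.89% lower in knockout. At an unadjusted p under 0.05 there were 7 genes, 4 with the higher mean in knockout and 3 with the lower, or 18.4% of the 38 against 21.7% of all tested probe sets (9.97% higher and 11.8% lower). In 5 of 38 genes the groups did not overlap, or 13.2%, against 21.1% of all tested probe sets (9.4% higher and 11.8% lower). Over the brightest probe sets of all 11159 named genes the shares were 4.76% called, 22.5% at the unadjusted p and 22.1% without overlap. Limma without a variance trend also called 0 of the 38 genes.

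Most log2 fold changes, knockout minus wild type on the scale of log2(intensity + 16), lay close to 0. Their median was -0.003 over the 38 genes and -0.03 over all tested probe sets, and the median of their sizes without sign was 0.11 against 0.23. The sets compared were not matched for brightness, and 17 of the 38 genes lay at or above the 98th percentile of mean level. Of the 38 genes, 18 were above 0 and 20 below it. A size under 0.2 was seen in 25 genes and one of 0.5 or more in 7. A p that misses the threshold does not show equality, so 95% confidence intervals from the same fit are given. The interval lay within a 1.5-fold change in either direction for 18 genes and within a 2-fold change for 31, and it reached beyond 2-fold for 7. The genes were unequal in this respect, and the spread between livers differed widely from gene to gene.

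**Figure D1:**
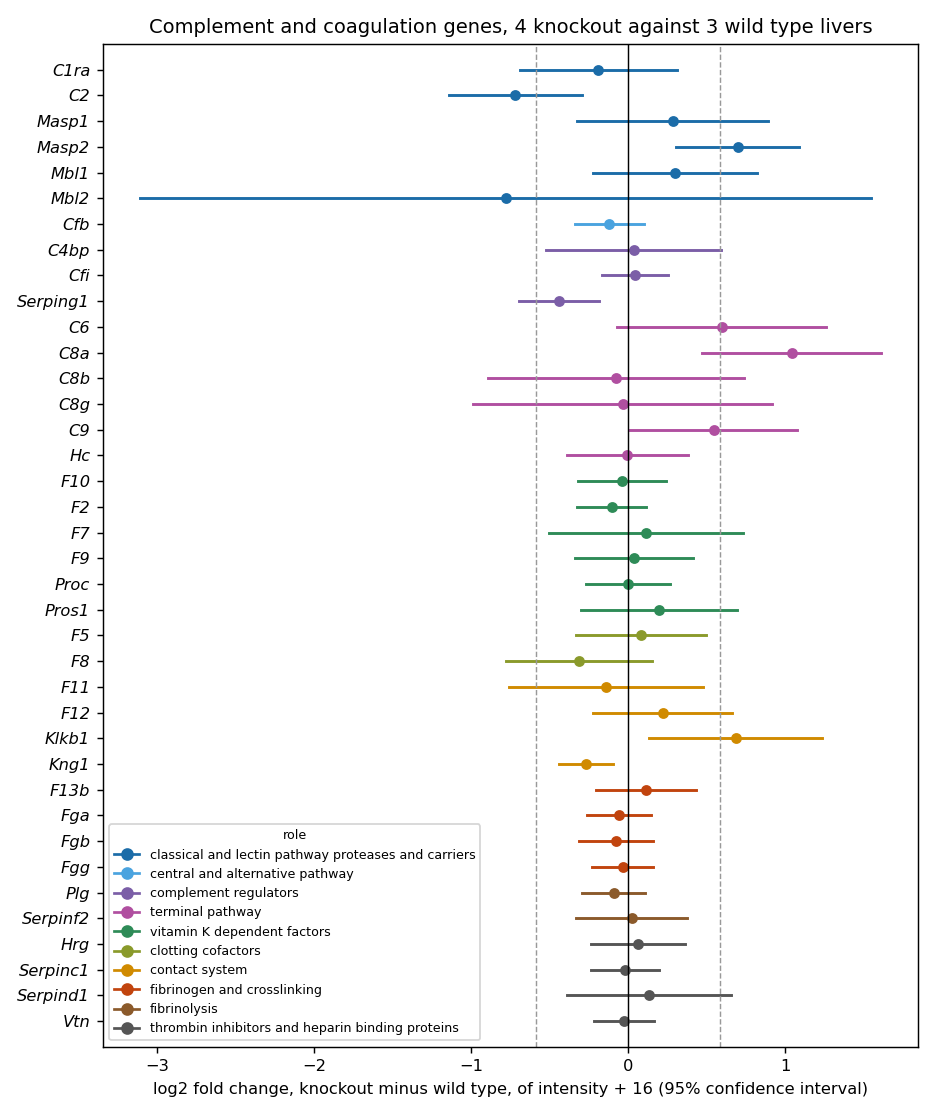
Log2 fold change of each of the 38 genes (points) with its 95% confidence interval (lines), coloured by role, and dashed lines at a 1.5-fold change either way. The fibrinogen genes sit near 0 with intervals between -0.31 and 0.16, C8a has the highest value at 1.04, and the interval of Mbl2 runs from -3.11 to 1.55.

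Fibrinogen, the soluble precursor of the fibrin mesh, has 3 chains encoded by Fga, Fgb and Fgg, and none of them passed the test. Fga read 35821, 30689.6 and 31889 in wild type and 31112, 34704, 30829 and 29232 in knockout, for a log2 fold change of -0.06 ± 0.09 (SE). Fgb read 41467, 34359.8 and 36723 against 37086, 40689.5, 31839 and 33129, at -0.07 ± 0.11. Fgg read 32689, 29015 and 29468 against 28597, 32065, 30380.5 and 27636, at -0.03 ± 0.09. All 3 chains were highest in wild type 1 among wild type arrays and in knockout 2 among knockout arrays, and in each the groups overlapped. Their confidence intervals together spanned -0.31 to 0.16. These probe sets are among the brightest of the array, at the 99.9th percentile and above of mean level, and 17 of the 38 genes lay at or above the 98th percentile. No flag for saturated probes was used here, and whether compression at such high signal hides a change in these genes, or lessens that of other bright ones such as Kng1, was not tested.

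The 3 fibrinogen genes are neighbours on chromosome 3, and the bases before their start sites are shown with those of C8a, Masp2 and Mbl2, described further on. Windows come from RefSeq on build GRCm38, cover the 150 bases before each start site, and are written 5′ to 3′ in the direction of the gene. Capitals mark letters that match one of the liver motifs searched on both strands: GTTAAT of HNF1, CAAAGTCCA or CAAAGGTCA of HNF4, TTGCNNAA of C/EBP, TGTTTAC of FOXA proteins, and TTCNNNGAA of STAT proteins.

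Fga, chr3:83026003-83026152, plus strand: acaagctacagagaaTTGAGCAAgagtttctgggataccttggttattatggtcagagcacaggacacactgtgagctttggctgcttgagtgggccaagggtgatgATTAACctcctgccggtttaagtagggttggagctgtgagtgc

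Fgb, chr3:83049864-83050013, minus strand: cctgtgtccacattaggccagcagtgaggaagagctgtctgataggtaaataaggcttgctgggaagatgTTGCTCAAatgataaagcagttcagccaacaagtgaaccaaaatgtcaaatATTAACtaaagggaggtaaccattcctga

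Fgg, chr3:83007574-83007723, plus strand: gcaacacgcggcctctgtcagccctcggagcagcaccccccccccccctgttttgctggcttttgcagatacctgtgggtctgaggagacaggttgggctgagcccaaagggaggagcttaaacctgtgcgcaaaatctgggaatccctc

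C8a, chr4:104876399-104876548, minus strand: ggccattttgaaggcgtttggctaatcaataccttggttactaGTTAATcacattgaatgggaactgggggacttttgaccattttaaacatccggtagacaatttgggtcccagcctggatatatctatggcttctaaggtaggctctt

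Masp2, chr4:148602394-148602543, plus strand: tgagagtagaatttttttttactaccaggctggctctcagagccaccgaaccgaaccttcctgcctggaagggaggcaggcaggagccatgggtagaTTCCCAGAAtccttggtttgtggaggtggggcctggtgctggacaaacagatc

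Mbl2, chr19:30232778-30232927, plus strand: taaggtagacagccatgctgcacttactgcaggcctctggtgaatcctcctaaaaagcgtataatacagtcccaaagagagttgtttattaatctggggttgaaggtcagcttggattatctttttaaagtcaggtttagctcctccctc

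Within these 150 bases Fga and Fgb each held a C/EBP and an HNF1 match, C8a an HNF1 match and Masp2 a STAT match, while Fgg and Mbl2 held none of the searched letters. Promoter windows of 300 bases, from 250 before to 50 after the start, were found for 30 of the 38 genes. The HNF1 letters were in 10 of these 30 windows, or 33.3%, against 7.10% of 32851 windows in the whole table. The C/EBP letters were in 9, or 30.0%, against 10.8%, and the STAT letters in 8, or 26.7%, against 8.30%. HNF4 letters were in 2, F7 and F9, or 6.67% against 0.95%, and FOXA letters in 2, F11 and Klkb1, against 3.65%. HNF1, HNF4 and C/EBP proteins are well known regulators of liver genes, but a match of letters is not a bound site, and binding was not measured here.

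F13b, which encodes the carrier subunit of the factor that crosslinks fibrin, read 7582, 5843 and 7412 in wild type and 6070.0, 7799, 8153 and 8030.2 in knockout. Its log2 fold change was 0.11 ± 0.14. Knockout 1 stood apart below the other knockout arrays and inside the wild type range. Plg, the precursor of plasmin, read 31326, 29478 and 30002 against 26446, 28816, 32028 and 26589, at -0.09 ± 0.09. Serpinf2, the gene of the plasmin inhibitor antiplasmin, was at 0.02 ± 0.16. In both fibrinolysis genes the knockout arrays ran below and above the wild type ones.

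The vitamin K dependent factors carry modified glutamates that bind calcium and membranes. F2, the gene of prothrombin, read 23640.1, 24094 and 23665 in wild type, an SD of 255 around 23799.9. In knockout it read 20602, 21944, 25881 and 20524, with an SD of 2515, at a log2 fold change of -0.10 ± 0.10. The knockout arrays thus lay on both sides of a tight wild type group. Pros1, whose product protein S is a cofactor of the anticoagulant protein C, had the highest value of the 6 genes at 0.20 ± 0.22. It read 953, 1081 and 1348 against 1854, 1009, 1050.4 and 1372. F7, the protease that starts clotting with tissue factor, was at 0.11 ± 0.28, F9 at 0.04 ± 0.17 and F10 at -0.04 ± 0.13. Proc, the gene of protein C, was at -0.001 ± 0.12. F7 and F10 are neighbouring genes, and by their brightest probe sets both were lowest in knockout 1 and highest in knockout 3. A second F10 probe set had the same lowest and highest knockout arrays. In the dimmest F10 probe set knockout 3 was instead the lowest knockout array.

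Of the clotting cofactors, F5 was at 0.08 ± 0.19 and F8 at -0.32 ± 0.21. F8 is known to be made largely by endothelial cells of the liver sinusoids and not by hepatocytes. It read 431, 383 and 471 in wild type and 392, 388, 230.2 and 378 in knockout, where knockout 3 was the lowest array. Markers of endothelial cells were measured beside it: 0 of 12 passed the test in either direction, and their summed intensity was 21482 to 24446 in wild type and 15255 to 21952 in knockout. The markers lay on both sides of 0. Over all tested probe sets, 21.1% had groups that did not overlap. Tek, the angiopoietin receptor and the marker of smallest p, was at 0.61 ± 0.17 (adjusted p = 0.0731) and Eng, a receptor of the TGF beta family, at 0.35 ± 0.13 (adjusted p = 0.146), both above wild type in every knockout array. Below wild type in every knockout array were Vwf, the carrier of factor VIII in plasma, at -0.57 ± 0.17 (adjusted p = 0.0888), Stab2, a scavenger receptor of sinusoidal endothelium, at -0.51 ± 0.17 (adjusted p = 0.123), Stab1 at -0.43 ± 0.15 and Lyve1 at -0.71 ± 0.25. The part of endothelial content in the F8 value was not tested, and in whole liver fewer cells of a type and less RNA per cell cannot be told apart.

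Contact system genes gave values on both sides of 0, furthest for Kng1 and Klkb1, and none passed. This system starts clotting on charged surfaces and releases the peptide bradykinin from kininogen. Kng1, the kininogen gene, read 39696, 37142 and 37239 in wild type and 31169, 30502, 33594 and 31022 in knockout, so every knockout array lay below every wild type array. Its mean was 38026 ± 1447 (SD, n = 3) against 31572 ± 1378 (SD, n = 4). The log2 fold change was -0.27 ± 0.08, 1.2-fold lower, and did not pass (adjusted p = 0.0779 with limma). A dimmer probe set of Kng1 was at -0.42 ± 0.10 (adjusted p = 0.0508), also without overlap.

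Klkb1, which encodes plasma kallikrein, the protease that cuts kininogen, read 3210.5, 1745 and 2948 in wild type and 2775, 4860.5, 4415 and 4761 in knockout. Knockout 1 fell inside the wild type range, while the other knockout arrays were above it. The log2 fold change was 0.68 ± 0.25, with an interval from 0.13 to 1.24 and an adjusted p of 0.146. F11, the neighbouring gene and a relative of Klkb1, was at -0.14 ± 0.28, and F12, the protease that starts the contact pathway, at 0.22 ± 0.20. F11 read lowest in knockout 1, at 1556 against 2314 to 3732 in the other knockout arrays.

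Complement held the values furthest from 0. C8a, which encodes the alpha chain of a pore-forming terminal component, read 1486, 1428 and 1023 in wild type and 1637, 3761, 2957 and 2843 in knockout. All knockout arrays were above all wild type arrays, knockout 1 by little. The mean went from 1312 ± 252 (SD, n = 3) to 2799.5 ± 876 (SD, n = 4), and the log2 fold change of 1.04 ± 0.26, 2.06-fold, had the smallest adjusted p of the 38 genes, 0.0516, just outside the threshold. It passed without knockout 1, at 1.28 (adjusted p = 0.0085), and with arrays scaled to equal medians, at 1.10 (adjusted p = 0.0474). Over all alternatives its value ran from 0.87 to 1.28 and its adjusted p from 0.0085 to 0.206, the highest without wild type 3.

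C8b and C8g encode the other two chains of the same protein, and C8b is the gene next to C8a. C8b read 5085, 2353 and 3314 in wild type and 2820.1, 6345, 1908 and 3208 in knockout, at -0.08 ± 0.37. C8g read 3217, 2578 and 2921 against 1234, 3498, 6399 and 2301, at -0.03 ± 0.43. In neither did the groups separate, and the intervals ran from -0.89 to 0.74 for C8b and from -0.99 to 0.92 for C8g. The difference between the chains was not tested. Among other terminal genes C6 was at 0.60 ± 0.30 and C9 at 0.55 ± 0.24, both dim, and Hc, the gene of the fifth component, at -0.01 ± 0.17.

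Initiating genes of the lectin and classical pathways scattered to both sides of 0. Masp2, the lectin pathway protease that cleaves the next components, read 788, 680.2 and 733 in wild type and 978, 1331, 1504 and 1055 in knockout. The groups did not overlap, at means of 734 ± 53.7 (SD, n = 3) and 1217 ± 244 (SD, n = 4). Its log2 fold change was 0.70 ± 0.18, 1.62-fold (adjusted p = 0.0551). A second probe set of Masp2 was at 0.26 ± 0.23 with overlapping groups. Masp2 also passed without knockout 1 (0.80, adjusted p = 0.0370) and with equal medians (adjusted p = 0.0477). Its adjusted p ran up to 0.568 over the alternatives, at 0.26 where the second probe set stood for the gene. That setting left out probe sets with names ending in _s_at, _x_at or _a_at, called shared below. The brightest Masp2 probe set ends in _a_at, and whether it binds transcripts of other genes was not tested. Masp1, the related protease that activates it, was at 0.28 ± 0.28 by its brightest probe set and between 0.01 and 0.61 by 3 others, and C1ra, a protease of the first component, at -0.19 ± 0.23.

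C2, the protease subunit that joins with the fourth component, had the lowest log2 fold change of the 38 genes after Mbl2. It read 1649.9, 2111 and 1877 in wild type and 962, 1556, 1141 and 954 in knockout, with no overlap. The log2 fold change was -0.72 ± 0.19 (adjusted p = 0.0634), and without knockout 2 it passed at -0.87 (adjusted p = 0.0323). Without shared probe sets it was at -0.23 (adjusted p = 0.490), the highest adjusted p of its alternatives. The probe set is of a type that can bind other transcripts, and 2 further probe sets of C2 were at -0.23 ± 0.17 and -0.38 ± 0.17 with overlapping groups. Cfb, the neighbouring gene and counterpart of C2 in the alternative pathway, read 9013, 8327 and 8341 against 7839, 8579.9, 7656 and 7478, at -0.12 ± 0.10.

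Among regulators, Serping1 encodes the inhibitor of the first component's proteases, which also restrains kallikrein. It read 12406, 13342 and 12123 in wild type and 8105, 10683, 9746 and 8870.3 in knockout. Every knockout array was below every wild type array, with means of 12624 ± 638 (SD, n = 3) and 9351 ± 1112 (SD, n = 4). The log2 fold change of -0.44 ± 0.11, 1.36-fold lower, did not pass (adjusted p = 0.0611). Cfi, which cuts activated components apart, was at 0.04 ± 0.10, and C4bp, its cofactor, at 0.04 ± 0.25. Genes of thrombin inhibitors were near 0: Serpinc1, the antithrombin gene, at -0.02 ± 0.10 and Serpind1, the heparin cofactor gene, at 0.13 ± 0.24. Serpind1 read 8539, 6266 and 7024 in wild type and 5163, 9022, 11527 and 7295 in knockout. Hrg, a heparin-binding plasma glycoprotein, was at 0.07 ± 0.13 and Vtn, the gene of vitronectin, which binds the terminal complex, at -0.03 ± 0.09.

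**Figure D2:**
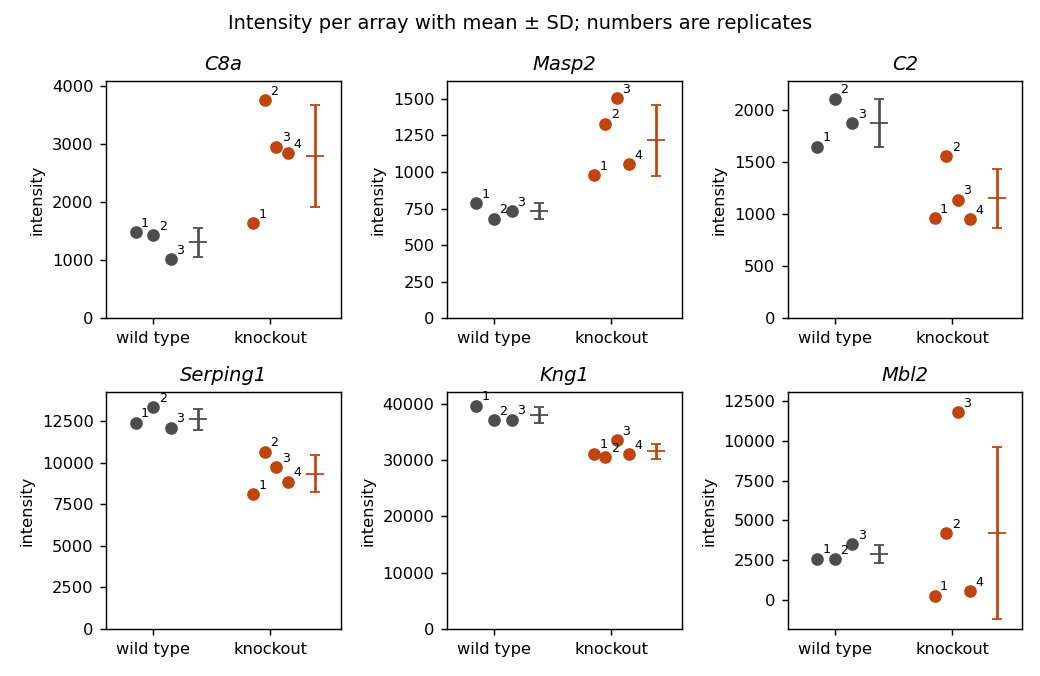
Intensity (linear axis) of 6 genes in each array, with replicate numbers beside the points and the group mean ± SD at their right. C8a, Masp2, C2, Serping1 and Kng1 show groups that do not overlap, though none passed the adjusted threshold, while the knockout arrays of Mbl2 run from 263 to 11828 around wild type arrays of 2577 to 3512.

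Mbl2, a mannose-binding lectin that starts the lectin pathway, varied most between livers. Its wild type arrays read 2583, 2577 and 3512, and its knockout arrays 263, 4201, 11828 and 545. Knockout 1 and 4 were thus far below wild type and knockout 3 far above it, a 44.9-fold range within the knockout group against 1.36-fold within wild type. The mean difference of -0.78 ± 1.05 on the log2 scale carries an interval from -3.11 to 1.55, which covers large changes in both directions. It was -1.72 without knockout 3, -1.23 without knockout 2, -0.26 without knockout 4 and 0.08, with the sign turned, without knockout 1. Mbl1, its paralogue, read 1285, 1823 and 1714 against 1330.1, 2228, 2751 and 1808, at 0.30 ± 0.24, with knockout 1 lowest and knockout 3 highest among knockout arrays as well.

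The same order of knockout arrays recurred in a part of the list. Knockout 3 was the highest knockout array in 20 of 38 genes, or 52.6%, against 23.6% of all tested probe sets. Knockout 1 was the lowest in 20, or 52.6%, against 22.9%. Both held in 13 genes, or 34.2%, against 9.39%. The median gene stood at 0.22 in knockout 3, 0.12 in knockout 2, -0.08 in knockout 4 and -0.20 in knockout 1, in log2 units relative to the wild type mean, while wild type arrays ran from -0.05 to 0.05. Among the genes with both were C8g, F7, F5, Serpind1 and Hrg. Pros1, F8 and F12 went another way, with knockout 1 the highest knockout array, and in C1ra, C8b, F8 and Fgb knockout 3 was the lowest. In 12 of 15 tested genes for other secreted hepatocyte proteins, such as albumin and the apolipoproteins, knockout 3 was also the highest knockout array, but knockout 1 was the lowest in 3 of the 15. In 9 granulocyte markers knockout 1 was the lowest knockout array in 7 and knockout 3 the highest in 0.

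Spread between livers of 1 group was larger in knockout for 33 of 38 genes, or 86.8%, against 67.5% of all tested probe sets. The median SD on the log2 scale was 0.30 over knockout and 0.15 over wild type arrays for these genes, and 0.26 and 0.18 for all tested probe sets. The groups differ in size, and no test of the spread was made. Knockout 3 was also the array with the highest ratio of 3′ to 5′ signal for each of 4 control transcripts, for example 11.1 against 7.22 to 8.24 for transferrin receptor. A high ratio is a sign of shortened RNA or incomplete labelling, and its part in these values was not tested.

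**Figure D3:**
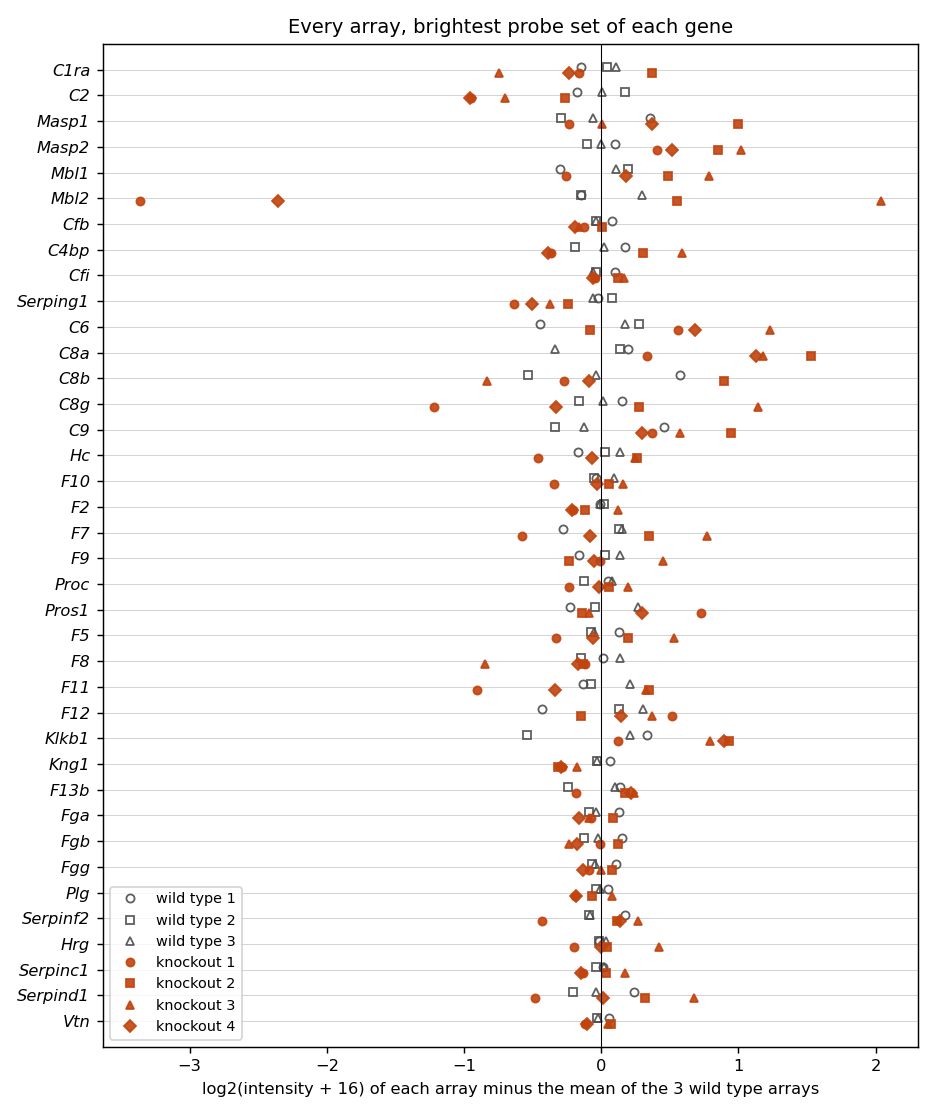
Log2(intensity + 16) of every array for each of the 38 genes, as the difference from the mean of the 3 wild type arrays (open grey symbols, wild type; filled symbols, knockout; the shape gives the replicate number). Knockout 1 (circles) often lies left of the other knockout arrays and knockout 3 (triangles) right of them, most of all for Mbl2.

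**Figure D4:**
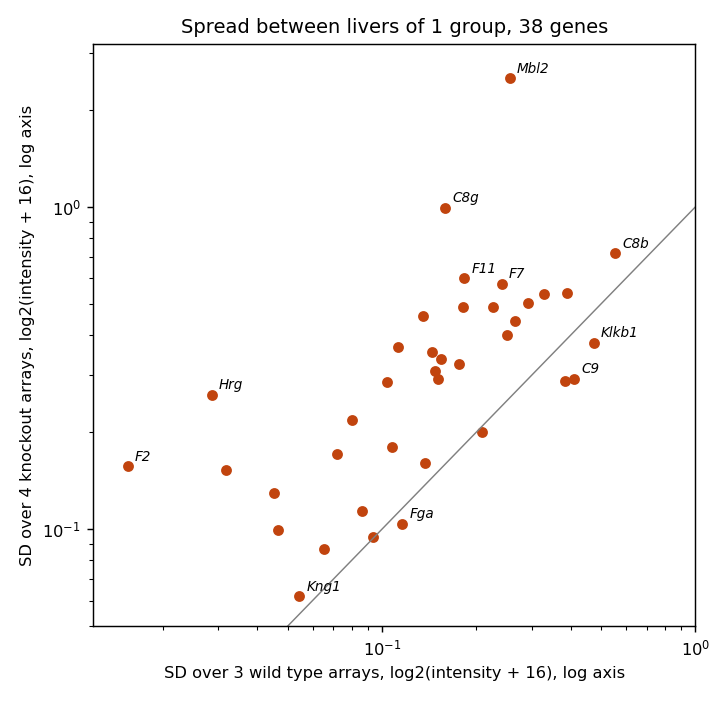
SD over the 4 knockout arrays against SD over the 3 wild type arrays on the log2(intensity + 16) scale, both axes logarithmic, 1 point for each of the 38 genes, with the line of equal spread. Points above the line, 33 of 38, have the larger spread in knockout, and Mbl2 lies highest.

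Where a gene had several tested probe sets, they did not always give 1 value. Of the 50 probe sets 49 were tested and 0 were called. Both Kng1 probe sets and all 3 of C2 lay below 0, and those of Masp1 and Masp2 lay above it. For F10 the brightest probe set was at -0.04 ± 0.13 and the others at 0.25 ± 0.12 and 0.17 ± 0.13, the first of these without overlap of the groups. F5 had 1 probe set on each side of 0, both with overlapping groups. The second Vtn probe set, at -0.21 ± 0.08, had groups that did not overlap, unlike the brighter one.

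**Figure D5:**
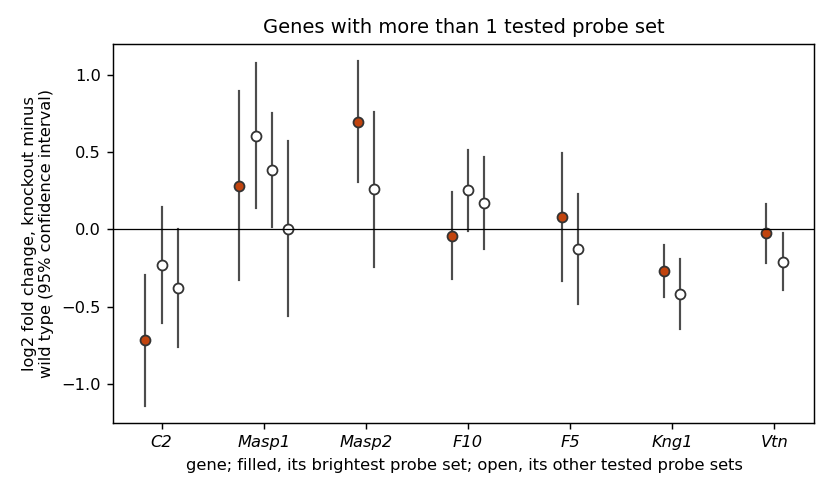
Log2 fold change with 95% confidence interval of every tested probe set for the 7 genes with more than 1, the brightest filled. The C2 and Masp2 values are furthest from 0 in the brightest probe set, at -0.72 and 0.70, and nearer 0 in the others.

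Other genes of both cascades and of their supply were taken from lists written out by name. Of 23 tested further complement genes, which cover the subunits of C1q, membrane inhibitors and receptors, 0 rose and 1 fell. That gene was Cd93, a membrane protein of endothelial and myeloid cells related to lectins, at -0.49 ± 0.12 (adjusted p = 0.0473), and it did not pass when any 1 array was left out (adjusted p up to 0.189). Colec12, a scavenger receptor with a collagen-like stalk, was at -0.94 ± 0.25 (adjusted p = 0.0648). Of 32 tested genes of clotting and fibrinolysis outside hepatocyte plasma factors or beside them, 0 passed in either direction. At an unadjusted p under 0.05, 3 of the 32 were above 0 and 7 below, against 9.97% and 11.8% of all tested probe sets. Tfpi2, a protease inhibitor of the matrix, was at 0.98 ± 0.24 (adjusted p = 0.0520) and Prss8 at 0.76 ± 0.20 (adjusted p = 0.0655). Lman1, the cargo receptor that exports factors V and VIII from the endoplasmic reticulum, was at 0.51 ± 0.15 (adjusted p = 0.0780).

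The vitamin K cycle and genes that share its modified domain gave 1 rise and 0 falls among 9 tested. Prrg2, a membrane protein with a vitamin K dependent domain, went from 376 ± 61.5 (SD, n = 3) to 765 ± 106 (SD, n = 4), a log2 fold change of 1.00 ± 0.17 (adjusted p = 0.0165). Leaving out wild type 1 or wild type 3 ended the call, with an adjusted p of up to 0.0819. Ggcx, the carboxylase that modifies the clotting factors, was at 0.31 ± 0.40, and Vkorc1, which recycles vitamin K and is the target of warfarin, at 0.09 ± 0.19.

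Of 23 tested liver transcription factors and cytokine receptors, 1 rose and 0 fell. Nr1h4, the bile acid receptor FXR, went from 719.8 ± 231 (SD, n = 3) to 1495 ± 240 (SD, n = 4), at 1.08 ± 0.23 (adjusted p = 0.0332), and the call was lost in 4 of 7 fits that left out an array (wild type 1, wild type 3, knockout 2 and knockout 4), with an adjusted p of up to 0.108. Hnf4a, a main regulator of clotting factor genes, was at 0.07 ± 0.16, Cebpa at 0.73 ± 0.27 (adjusted p = 0.147) and Stat3, which carries the interleukin signal of the acute phase, at 0.05 ± 0.12. Acute phase genes gave 0 calls among 16 tested. At an unadjusted p under 0.05, 1 of the 16 was higher and 3 were lower. Serpina3n, a protease inhibitor of that response, was at -0.57 ± 0.17 (adjusted p = 0.0912) and Mt2 at -0.77 ± 0.29 (adjusted p = 0.165). Both lay below wild type in every knockout array. Saa3 was at 0.81 ± 0.32 (adjusted p = 0.173) and Hp, the haptoglobin gene, at 0.13 ± 0.12. In the list of secreted hepatocyte proteins 1 of 15 rose, Serpina6, the corticosteroid carrier (1.78 ± 0.31, adjusted p = 0.0160, not passing without wild type 3 at 0.0741). Serpina6 read 112, 29.7 and 64.4 in wild type and 265, 253, 264 and 223 in knockout. The median intensity of the arrays ran from 92.5 to 108. The wild type mean of Serpina6, 68.8, lay below these medians, so its knockout values brought it past the expression filter. Alb was at 0.08 ± 0.13 and Afp at 0.02 ± 0.10.

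Alb, the albumin gene that marks hepatocytes, read 26464.9 to 39072 over the 7 arrays, and markers of other cells were present too. Over lists of markers, 0 of 12 Kupffer cell and macrophage genes, 0 of 11 stellate cell and fibroblast genes, 0 of 9 platelet genes, 0 of 9 granulocyte genes and 0 of 3 bile duct genes passed in either direction. Among 10 tested erythroid genes 3 fell, Slc4a1, Rhag and Trim10, beside 1.89% of all tested probe sets called lower. At an unadjusted p under 0.05, 7 of the 10 were lower and 0 higher, against 11.8% and 9.97%. Klf1 was at -0.03 ± 0.14 and Gata1 at -0.32 ± 0.16, both with overlapping groups. The summed intensity of the list, which includes the 3 called genes, was 85259.8 to 97725 in wild type and 69906 to 76920 in knockout, without overlap. With each array left out in turn, Slc4a1 passed in 2 of 7 fits and Rhag and Trim10 in 1 each, with an adjusted p of up to 0.189. The part of erythroid content in the values of complement and clotting genes was not tested.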

How the data were processed

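Messenger RNA was measured in 7 livers with 1 array each. The deposited values are linear intensities, 1 for each probe set and array. The submitters' processing notes name GCOS alone, with no version or role. How probes were summarised is not stated in what was used here. The trimmed mean of every array was 500.003, so the deposited arrays share 1 scale, which cannot show a change of total RNA. Control probe sets (64 of 45101) were removed and log2(intensity + 16) was taken with no further scaling. The brighter 22518 probe sets, those whose mean exceeded the median, were tested with limma 3.58.1 in R 4.3.3 (lmFit, eBayes with a trend, no covariate), with p adjusted over all of them. The offset of 16 makes fold changes of dim probe sets too small. Errors are SEs from limma unless called SD. The number of arrays limits the precision.

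Gene names are those of the platform annotation, and a gene is represented by its probe set of highest mean. The rule gave values in every array for called genes, for the gene of largest change in each role, and for fibrinogen, C3, F2 and Plg. C3 had no value to give. In other lists the rule named up to 4 called genes or the 2 of smallest p. Every other gene given with array values, and every other name from those lists, was picked once its values were known. The genes and lists were chosen with earlier results of these data known. No value is given for the glycerol kinase transcript, and it was not used as a check of the labels. Steps were tested on simulated data. Alternatives covered offset, scaling, filter, variance trend, probe set choice, threshold, the replicate block and each array left out. Figures were drawn with matplotlib 3.10.9.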

Additional observations from a re-analysis of the deposited data

Results flagged for a closer look

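Within the 4 knockout arrays, 2 of 38 genes had an array whose gap to the nearest other array, as a share of the whole range, passed Dixon's 95% critical value. For F8 the gap was 0.93 of the range, with knockout 3 at 230.2 and the others at 378 to 392. For F13b it was 0.85, with knockout 1 at 6070.0 and the others at 7799 to 8153. By chance about 1 in 20 such groups would show this. The wild type group of 3 was not examined in this way.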

How the results depend on the processing

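Over 18 alternatives 19 of the 38 genes kept their sign throughout, 58 of 655 values had another sign with no call on either side, and 0 reversed with a call. The count of 0 called genes became 2 higher and 0 lower with equal medians, 0 and 1 with quantile normalization, 2 and 3 with the filter at the 75th percentile (35 genes tested), and 2 and 3 at an adjusted p under 0.1. Leaving out 1 array gave 0 to 2 higher (C8a and Masp2, without knockout 1) and 0 to 1 lower (C2 without knockout 2, Kng1 without knockout 3). Over all settings 33 genes never passed. The median gene stayed between -0.06 and 0.08. Of all tested probe sets, 955 were called, against 473 with no filter, 584 without a trend, 387 with probe sets averaged by gene, 538 without shared probe sets, 2032 at an adjusted p under 0.1 and 127 to 1006 with 1 array left out. Called genes of the other pathway lists, 4 in all, became 2 with no filter, 2 without a trend, 2 without shared probe sets, 10 at an adjusted p under 0.1 and 0 to 7 with 1 array left out. Same-numbered arrays deviated with correlations of 0.09, -0.06 and 0.06. These few values showed no pairing of the livers by number, and they cannot exclude it. With the replicate block, in which knockout 4 has no partner and adds nothing to the difference, 0 of the 38 genes, 351 probe sets and 1 other pathway gene were called. The cause of these shifts was not tested. Signal over background limits C6 and C9 most, the dimmest of the 38 genes.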
